A study of Homo sapiens with 9 samples.

Results

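The genes of cholesterol and fatty acid synthesis were described in TC71 cells, a human Ewing sarcoma line that carries the EWSR1-FLI1 fusion, after growth in mice. Members were taken by symbol: 32 genes, of 34922 in the count table, namely 18 sterol pathway enzymes, 5 regulators and transporters of sterol synthesis and 9 fatty acid genes. All 32 passed the filter on low counts that left 17073 genes for testing. The libraries came from 4 bone marrow metastases, 4 lung metastases and 1 primary tumour in the flank. In every group the cells were unmodified TC71, without a treatment named in the labels. They had been placed under the skin of NSG mice, which lack T, B and NK cells, as 100 cells in Matrigel, and were recovered by flow sorting when tumours measured 1.5 cm. The animals' age and sex and the mouse behind each library are not stated in the sources used here, and all libraries come from the same line. Replicates are therefore separate samples of a site, possibly from shared animals, and the tests speak only for the spread among these samples.

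Total estimated counts were 14160000 to 17910000 in bone marrow libraries and between 11550000 and 13220000 in lung, with 12350000 in the primary library, to the nearest 10000. Ewing sarcoma markers summed to between 2128 and 2412 CPM, the count scaled to library size, in bone marrow, between 1999 and 2725 CPM in lung and to 2771 CPM in the primary library, led by STEAP1 and CD99. Of the 12 in the table, FLI1, the fusion partner, was at 0.765 CPM or less and had no reads in 3 libraries, and CCK ran between 0.145 and 589 CPM. Markers of 5 other cell types summed to less: red cell markers reached at most 111 CPM in bone marrow, against 173 CPM in lung, leukocyte markers 15.2 and 44.5 CPM, lung epithelial markers 222 and 134 CPM, endothelial and stromal markers 250.2 and 158 CPM, and adipocyte markers 26.2 and 24.0 CPM, all as sums. Led by HBA1, CD68, EPCAM, LUM and LPL, these sums overlapped between the sites. No reads were found for 2 of 10 red cell (ALAS2, GYPB), 1 of 14 leukocyte (CSF1R) and 2 of 11 lung epithelial markers (SFTPD, SCGB1A1). In DESeq2 COL1A2 was called higher and CD68 lower in bone marrow, at 0.183 to 3.82 and 0 to 0.444 CPM there, against at most 0.170 CPM and at least 0.993 CPM in lung. Another leukocyte marker, LYZ, went the other way from CD68, at 0.587 to 1.53 CPM in bone marrow, against 0 to 0.563 CPM in lung. COL1A2 and LYZ passed the filter on low counts only through bone marrow, so their separation is not support. By sign 4 of 8 tested endothelial and stromal markers were higher in bone marrow. For leukocyte markers it was 2 of 6, against 49.9% of all genes. The share of reads assigned to mouse was 7.35 to 7.75% in bone marrow, 7.0 to 8.09% in lung and 7.45% in the primary library. Bone marrow replicate 1 stood apart from the other 3 libraries of its site. Reads in protein-coding genes made up 45.5% of its reads, against 50.8 to 52.2% in the other bone marrow libraries, 44.5 to 46.4% in lung and 48.5% in the primary library. Results that rest on this library are given with and without it, and its part in them is stated as a measurement.

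Cells make cholesterol from acetyl-CoA through mevalonate, isoprenoid diphosphates, squalene and lanosterol. Fatty acid synthesis starts from the same acetyl-CoA, which ATP citrate lyase supplies in the cytosol. Both branches are induced by the SREBP transcription factors, encoded by SREBF1 and SREBF2. SCAP escorts these from the endoplasmic reticulum to the Golgi when sterols are low, and INSIG proteins hold them back when sterols are high. SREBPs bind sterol regulatory elements and work with the CCAAT-binding factor NF-Y and with Sp1, which binds GC boxes.

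The promoters are shown because SREBPs and NF-Y are known to act there. They are the 250 bases before the RefSeq start site (GRCh38.p14), for which 28 of the 32 genes had an entry. ACAT2, FDFT1, SQLE and FASN had none. CCAAT was searched on both strands, so that ATTGG also counts, and every match was counted whether or not it touched another motif. It was found in 21 of 28 genes (75%), against 41.6% of 11096 tested genes with an entry. The GC box GGGCGG was found in 27 of 28 (96.4%), against 70.3%. The sterol regulatory element core TCACNCCAC was found in 1 of 28 (3.57%), in SREBF2, against 1.18%. A match describes these letters in this window and is not a shown binding site. Printed 5′ to 3′ on the gene's strand are the promoters of 3 members that were higher in bone marrow, with CCAAT and ATTGG in capitals. MVK (chr12:109573544-109573793, plus strand) has 5 matches, MSMO1 (chr4:165327419-165327668, plus strand) has 4, and HMGCS1 (chr5:43313413-43313662, minus strand) has 2. HMGCS1 has 2 entries, and the other one holds no CCAAT. The fourth is SREBF2 (chr22:41832855-41833104, plus strand), with the sterol regulatory element core in capitals, which begins at position -133 from the start site.
MVK: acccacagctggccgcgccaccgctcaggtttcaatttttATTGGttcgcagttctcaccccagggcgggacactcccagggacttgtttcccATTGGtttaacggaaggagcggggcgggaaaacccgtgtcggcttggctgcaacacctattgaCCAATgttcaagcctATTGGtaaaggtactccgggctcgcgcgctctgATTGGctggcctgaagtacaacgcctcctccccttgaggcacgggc
MSMO1: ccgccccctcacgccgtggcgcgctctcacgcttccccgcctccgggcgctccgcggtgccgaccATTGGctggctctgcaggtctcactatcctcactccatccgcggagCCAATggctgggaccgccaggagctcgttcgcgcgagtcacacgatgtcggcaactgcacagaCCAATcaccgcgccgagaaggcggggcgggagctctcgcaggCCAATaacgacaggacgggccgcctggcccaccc
HMGCS1: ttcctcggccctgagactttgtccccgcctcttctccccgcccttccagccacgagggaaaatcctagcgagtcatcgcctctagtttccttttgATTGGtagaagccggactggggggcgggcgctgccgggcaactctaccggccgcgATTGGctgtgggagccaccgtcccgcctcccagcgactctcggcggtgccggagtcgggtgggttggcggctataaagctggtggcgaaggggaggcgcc
SREBF2: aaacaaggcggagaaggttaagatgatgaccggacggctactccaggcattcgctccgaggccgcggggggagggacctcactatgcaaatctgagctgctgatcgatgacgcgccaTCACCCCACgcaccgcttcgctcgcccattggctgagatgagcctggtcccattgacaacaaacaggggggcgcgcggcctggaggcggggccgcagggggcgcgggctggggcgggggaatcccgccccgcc

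Bone marrow was set against lung to ask how far the same tumour cells differ between the metastatic sites. Of the 18 sterol enzymes, 9 were higher in bone marrow by more than the standard error of their log2 fold change, 1, PMVK, was lower and 8 had no direction by that measure. ACAT2, HMGCS1, SQLE and MSMO1 averaged 1.70 to 1.86 times their lung level, and MVK was far lower in lung. HMGCS1, SQLE and the fatty acid desaturase FADS1 lay above all lung libraries in only 3 of 4 bone marrow libraries. Measures of the reads separated the sites too. Mitochondrial rRNA took 0.0956 to 0.218% of reads in bone marrow, against 0.359 to 0.491% in lung, with 0.0570% in the primary library. Unaligned reads were 18.9 to 20.3% in bone marrow, against 20.4 to 24.7% in lung, and reads assigned to human 77.6 to 79.1% and 72.7 to 77.3%. Their part in the differences between sites was not tested. Between-library spread was wide (biological coefficient of variation 0.925 over all genes). In the edgeR quasi-likelihood test with Benjamini-Hochberg adjustment over 17073 genes, 0 of the 32 passed, where 1 gene in all (0.00586%) was called higher in bone marrow and 0% lower. On simulated counts, with each gene given the spread typical of its level, the same test called 0.5% of 2-fold changes between these sites. For genes of such spread, 0 passing says little about changes of that size. At an unadjusted edgeR p below 0.05, 7 members were higher in bone marrow against 6.33% of all tested genes, and 0 were lower against 3.88%. DESeq2 called 3 members higher (ACAT2, MSMO1 and MVK) against 2.16% of genes, and 0 lower against 1.21%, and limma voom called 0, against 0.0293% of genes higher and 0.00586% lower. MVK is among the 9 sterol enzymes, the 7 and the 3. It passed the filter on low counts only through bone marrow, so its place in these counts is not support. DESeq2 gave no adjusted p for SREBF1 and FASN.

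By the sign of the log2 fold change, 24 of the 32 were higher in bone marrow, against 49.9% of all genes. Of these 24, 17 exceeded their standard error, against 24.1% of all genes, and 4 did so among the lower ones, against 21.0%. The 17 include MVK, with the limit given above. The 4 were PMVK, SREBF1, FADS2 and FASN. SREBF1 passed the filter on low counts only through lung replicate 1, and the lower value of FASN rests on the same library. The median log2 fold change was 0.61 over the sterol enzymes (13 of 18 higher), 1.04 over the regulators (4 of 5) and 0.58 over the fatty acid genes (7 of 9), against 0.00 over all genes. These are descriptions of lists whose members share libraries. The median of the 5 regulators is the value of INSIG1, and SREBF1 and SREBF2 in that list had few reads, so it does not rank the lists. All 4 bone marrow libraries lay above all 4 lung libraries for 5 members (ACAT2, MVK, IDI1, MSMO1 and INSIG1), against 2.81% of all genes, and the reverse held for 0, against 3.06%. MVK enters this count with the limit given above. Over all the alternatives run, the sign of the difference turned at least once for 8 of the 32 (HSD17B7, ACLY, LSS, FDPS, EBP, MVD, SCAP and FASN). Of the 21 genes whose log2 fold change exceeded its standard error, the sign turned for FASN only.

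**Figure D1:**
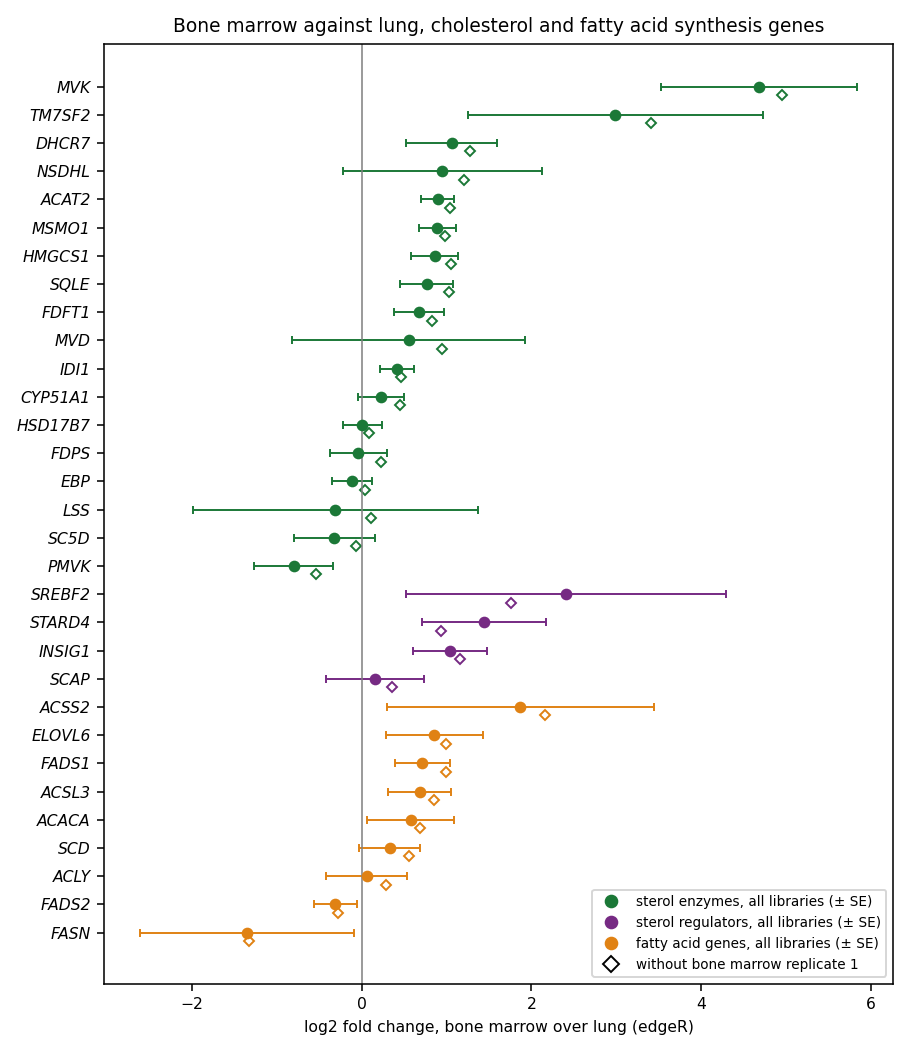
Log2 fold change of bone marrow over lung (x axis, edgeR) for each gene (y axis) except SREBF1, whose counts were too low, in 3 lists by colour; filled points are fits on all libraries with their standard error and open diamonds the fits without bone marrow replicate 1. Most sterol enzymes lie right of 0, ACAT2 at 0.90 and MSMO1 at 0.89 with narrow bars, while PMVK lies left of 0 at -0.80.

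Bone marrow replicate 1 was the lowest of its site for 23 of the 32 genes, against 24.0% of all genes, among them 16 of the 18 sterol enzymes. It lay above all lung libraries for 7 members, against 23.0% of all genes, within their range for 17, against 61.6%, and below all of them for 8, against 15.5%. The first of these shares is near that of all genes. Bone marrow replicates 2 to 4 all lay above replicate 1 and above all lung libraries for 12 members, against 4.96% of genes. Without replicate 1 the sites did not overlap for 12 members higher in bone marrow, against 6.60%, and for 1 lower, against 6.97%. The 7 added were HMGCS1, FDFT1, SQLE, CYP51A1, TM7SF2, NSDHL and FADS1, and the lower one was SREBF1, with about 1 read in each remaining bone marrow library. The median over the sterol enzymes became 0.88 (16 of 18 higher), and 10 members had an unadjusted edgeR p below 0.05, against 7.08% of genes, and 0 were lower, against 4.26%. In edgeR 0 members passed the adjusted threshold without it. Leaving out a library that is low for a gene raises the bone marrow mean and can narrow the spread. Counts and p-values without replicate 1 are therefore values only, not separate support. MVK, which passed the filter on low counts only through bone marrow, is in both counts of 12 and in the 10, and is not support there. The share of protein-coding reads, given above, moved with this split of the bone marrow libraries, and its part in the result was not tested.

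**Figure D2:**
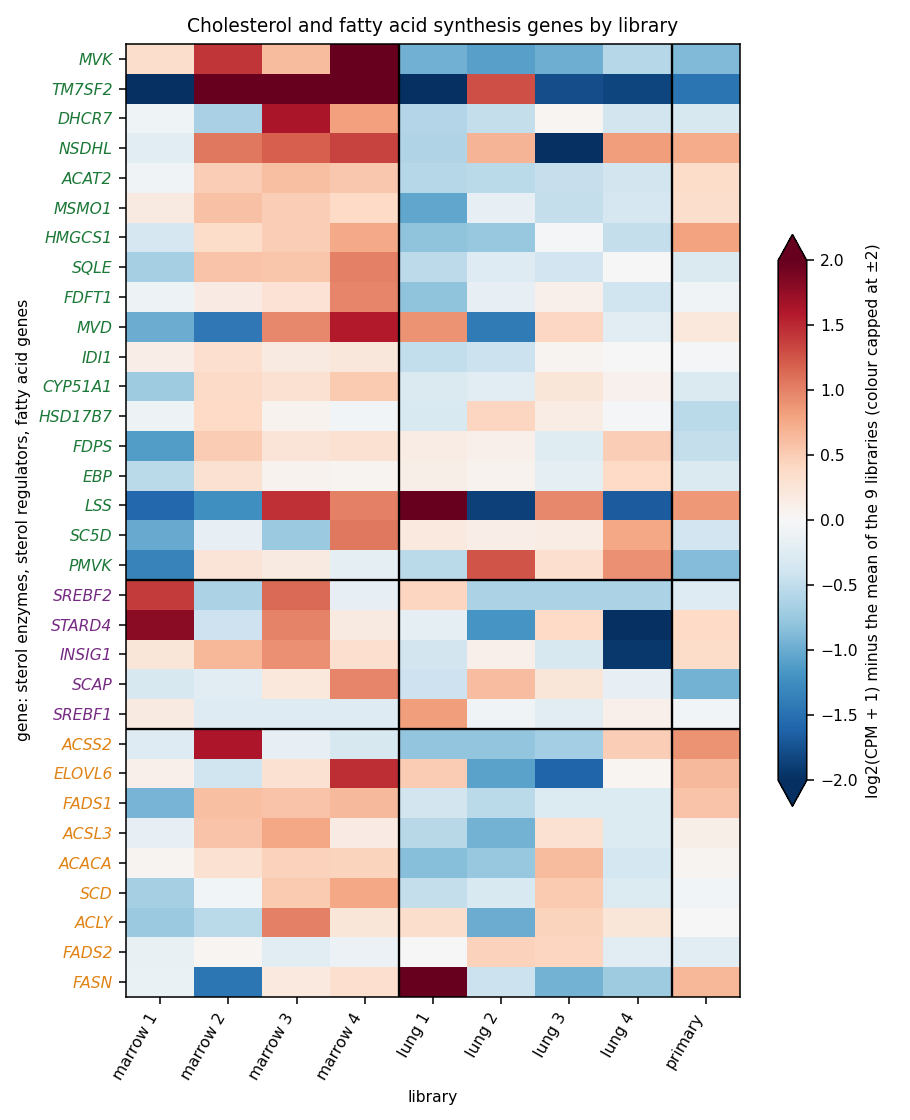
Each row is a gene and each column a library; colour is log2(CPM + 1) minus the gene's mean over the 9 libraries, red above and blue below, capped at 2 either way, with black lines between sites and between the 3 lists. Marrow columns 2 to 4 are red for most sterol enzymes and marrow column 1 is not.

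The enzymes from acetyl-CoA to the isoprenoids are taken in pathway order. ACAT2 (chromosome 6, 159760328 to 159779055, GRCh38) joins acetyl-CoA units in the cytosol. Its level was 333, 492, 528 and 506 CPM in bone marrow replicates 1 to 4, against 235, 239, 254 and 270 CPM in lung replicates 1 to 4 and 453 CPM in the primary library. The lung values were close together and all below the lowest bone marrow value, that of replicate 1. The log2 fold change was 0.90 ± 0.19 (SE), with an unadjusted p of 0.00122, an edgeR adjusted p of 0.305 and a DESeq2 adjusted p of 0.00663. Without bone marrow replicate 1 it was 1.04 ± 0.13 (edgeR adjusted p 0.161). Whether counting used strand was not stated in the sources used here, and on the opposite strand 45.8% of ACAT2's exon bases overlap the non-coding SOD2-OT1, 34.8% SOD2 and 12.5% TCP1, so reads of these genes could be split between them. TCP1 was at 1291 ± 484 CPM in bone marrow, against 1185 ± 229 CPM in lung, and SOD2 at 118 ± 21.2 and 111 ± 32.9 CPM (SD, n = 4 each).

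HMGCS1 (chromosome 5, 43289395 to 43313512) makes HMG-CoA, the substrate for mevalonate. It was at 291, 473, 516 and 618 CPM in bone marrow, against 209, 215, 359 and 262 CPM in lung, with 639 CPM in the primary library. Bone marrow replicate 1 fell inside the lung range and the other 3 lay above it. The log2 fold change was 0.86 ± 0.28, with an unadjusted p of 0.0127 and an edgeR adjusted p of 0.428 (DESeq2 0.147), and it was 1.06 ± 0.22 without replicate 1. Of its exon bases 19.9% overlap an antisense gene, AC114947.2.

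MVK (chromosome 12, 109573255 to 109598117) phosphorylates mevalonate, and had few reads at every site. The rounded counts were 23, 77, 33 and 120 in bone marrow, 1, 0, 1 and 6 in lung and 2 in the primary library. The sites did not overlap, and the primary library was at the level of lung. MVK passed the filter on low counts only through bone marrow, so its separation and its p-values are given as values only. The means were 4.13 ± 2.78 CPM in bone marrow, against 0.151 ± 0.194 CPM in lung (SD, n = 4 each), a log2 fold change of 4.69 ± 1.15 with an unadjusted p of 0.00286, an edgeR adjusted p of 0.331 and a DESeq2 adjusted p of 0.00208.

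The next kinase, PMVK, went the other way in the fit. It was at 25.2 to 77.7 CPM in bone marrow, against 44.7 to 156 CPM in lung, overlapping, at a log2 fold change of -0.80 ± 0.47 (edgeR adjusted p 0.545). MVD, the decarboxylase that yields isopentenyl diphosphate, held 1 to 117 reads per library in bone marrow and 1 to 51 in lung. Its standard error, 1.37, exceeded its log2 fold change of 0.55.

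IDI1 (chromosome 10, 1039152 to 1049170), the isomerase that supplies the other isoprenoid unit, was at 305, 352, 317 and 324 CPM in bone marrow, against 198, 206, 289 and 281 CPM in lung, with 272 CPM in the primary library. The sites did not overlap, though the gap between the lowest bone marrow and the highest lung library was small. The log2 fold change was 0.42 ± 0.20 (unadjusted p 0.0622, edgeR adjusted p 0.487). FDPS, which makes farnesyl diphosphate, was at 255, 788, 663 and 680 CPM in bone marrow, against 609, 594, 467 and 780 CPM in lung. Apart from the low bone marrow replicate 1 the FDPS ranges were alike, at a log2 fold change of -0.04 ± 0.33, and of 0.23 ± 0.19 without that library. Of its exon bases, 28.9% overlap RUSC1-AS1.

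The enzymes committed to sterols follow. FDFT1, which makes squalene, was at 231, 276, 301 and 489 CPM in bone marrow, against 141, 220, 267 and 188 CPM in lung, with 237 CPM in the primary library. Bone marrow replicate 1 lay inside the lung range, at a log2 fold change of 0.67 ± 0.29 (unadjusted p 0.0487, edgeR adjusted p 0.486). SQLE oxidises squalene and is a rate-controlling step of the pathway. It was at 686, 1621, 1604 and 2193 CPM in bone marrow, against 759, 914, 839 and 1083 CPM in lung, with 897 CPM in the primary library. Bone marrow replicate 1 was thus below every lung library and the other 3 were above every one. With all libraries the log2 fold change was 0.76 ± 0.31 (unadjusted p 0.0378, edgeR adjusted p 0.485), and without that library 1.02 ± 0.18 (unadjusted p 0.000473, edgeR adjusted p 0.179). The library left out is the low value for SQLE, so the smaller p is not separate support.

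LSS, which closes the ring to lanosterol, held 0 to 163 reads per library, with no order between sites (0.222 to 9.04 CPM in bone marrow, 0 to 13.8 CPM in lung). CYP51A1 removes a methyl group from lanosterol. It was at 307, 657, 624 and 727 CPM in bone marrow, against 414, 430, 598 and 536 CPM in lung, a log2 fold change of 0.23 ± 0.28, or 0.46 ± 0.17 without bone marrow replicate 1 (unadjusted p 0.0273). As with SQLE, replicate 1 was the lowest of the 8 metastasis libraries for CYP51A1. TM7SF2, a sterol reductase, was at 0.222, 26.9, 40.9 and 24.7 CPM in bone marrow, against 0, 10.8, 0.414 and 0.363 CPM in lung. It was near 0 in bone marrow replicate 1 and in 3 lung libraries, at a log2 fold change of 2.99 ± 1.74 (edgeR adjusted p 0.543).

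MSMO1 (chromosome 4, 165327623 to 165343160), which removes the methyl groups of later intermediates, was at 395, 520, 491 and 458 CPM in bone marrow, against 170, 310, 250 and 275 CPM in lung, with 446 CPM in the primary library. All bone marrow values, replicate 1 included, lay above all lung values. The log2 fold change was 0.89 ± 0.22, with an unadjusted p of 0.00284, an edgeR adjusted p of 0.331 and a DESeq2 adjusted p of 0.0248. NSDHL, which acts with MSMO1, was at 27.5 to 82.7 CPM in bone marrow, against 20.7 to 57.3 CPM in 3 lung libraries, and lung replicate 3 had no reads of it. HSD17B7 (log2 fold change 0.01 ± 0.23), the isomerase EBP (-0.11 ± 0.23) and the desaturase SC5D (-0.32 ± 0.48) differed by less than 1 standard error, and their ranges overlapped. DHCR7, a late sterol reductase, was at 15.9 to 81.7 CPM in bone marrow, against 16.6 to 26.2 CPM in lung (log2 fold change 1.06 ± 0.53, edgeR adjusted p 0.499). Its bone marrow values were spread, with replicate 2 below every lung library.

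**Figure D3:**
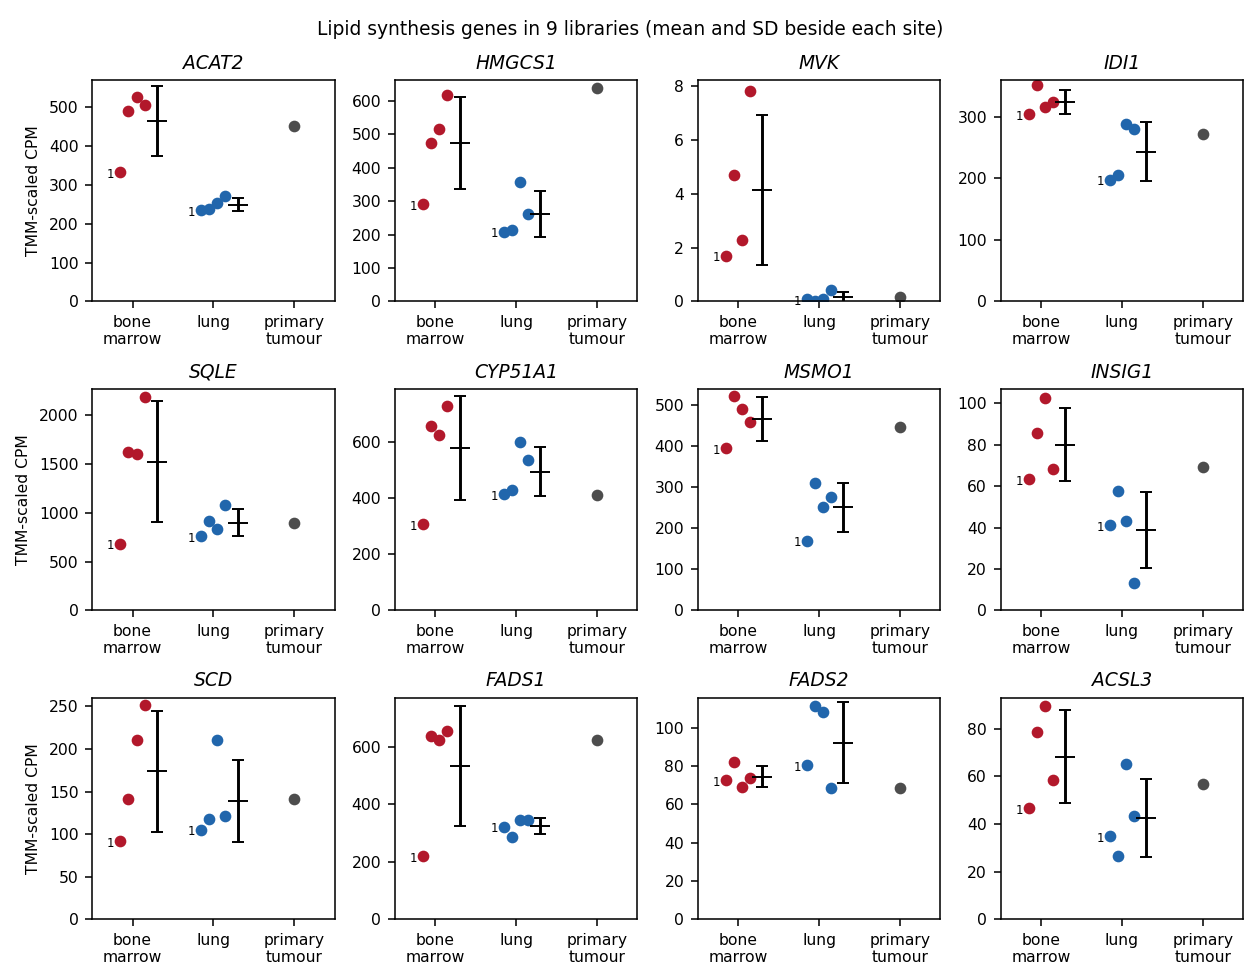
TMM-scaled CPM (y axis, from 0) of 12 genes in each library; points are libraries in replicate order with replicate 1 marked, and the bar beside each site is mean and SD over its 4 libraries. ACAT2, IDI1, MSMO1, MVK and INSIG1 have no overlap between bone marrow and lung, and in SQLE and FADS1 bone marrow replicate 1 lies below all lung libraries.

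Among the regulators, INSIG1 (chromosome 7, 155297776 to 155310235), the retention protein that is itself an SREBP target, was at 63.4, 85.7, 102 and 68.4 CPM in bone marrow, against 41.3, 57.5, 43.0 and 13.4 CPM in lung, with 69.4 CPM in the primary library. The sites did not overlap. The log2 fold change was 1.04 ± 0.44, with an unadjusted p of 0.0400 and an edgeR adjusted p of 0.486. STARD4, a cytosolic sterol carrier, was at 51.3, 10.1, 28.7 and 15.8 CPM in bone marrow, against 12.1, 5.56, 18.5 and 2.76 CPM in lung (log2 fold change 1.44 ± 0.73, edgeR adjusted p 0.499). Here bone marrow replicate 1 was the highest of all libraries, unlike in the enzymes, and the log2 fold change without it was 0.93.

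The transcription factors themselves were barely measured. SREBF1 had 6, 1, 1 and 1 reads in bone marrow, 15, 3, 1 and 5 in lung and 3 in the primary library, so no fold is given. SREBF2 had 42, 0, 35 and 6 reads in bone marrow, 13, 0, 0 and 0 in lung and 4 in the primary library. Neither passed the test between sites (edgeR adjusted p 0.667 for SREBF1 and 0.674 for SREBF2), and the reads of SREBF2 varied widely within bone marrow. SCAP was at 4.14 to 11.6 CPM in bone marrow, against 3.82 to 8.79 CPM in lung, at a log2 fold change of 0.16 ± 0.58.

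In the fatty acid branch, 0 of 9 genes were separated between sites with all libraries, against 2.81% of all genes higher and 3.06% lower in bone marrow. With shares this small, 0 of 9 does not set the branch apart. FADS1 (chromosome 11, 61799625 to 61829318), a desaturase of polyunsaturated fatty acids, was at 219, 636, 623 and 656 CPM in bone marrow, against 323, 288, 344 and 345 CPM in lung, with 624 CPM in the primary library. Bone marrow replicate 1 lay below all lung libraries, whereas the other 3 lay close together and above all lung libraries. With all libraries the log2 fold change was 0.72 ± 0.32 (unadjusted p 0.0537, edgeR adjusted p 0.486). Without that library it was 0.99 ± 0.13 (unadjusted p 7.7e-05, edgeR adjusted p 0.161). The library left out is the low value for FADS1, so the smaller p follows from that choice and is not separate support. Its neighbour FADS2, which acts in the same pathway, was at 69.0 to 82.1 CPM in bone marrow, against 68.4 to 111 CPM in lung, at a log2 fold change of -0.31 ± 0.25. The difference between the FADS1 and FADS2 changes was not tested.

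ACLY, which makes cytosolic acetyl-CoA from citrate, was at 35.3 to 122 CPM in bone marrow, against 29.7 to 81.5 CPM in lung (log2 fold change 0.06 ± 0.48). ACSS2, which makes it from acetate, had 6, 71, 8 and 6 reads in bone marrow and 0, 0, 1 and 20 in lung. ACACA, the carboxylase that commits acetyl-CoA to fatty acids, was at 11.5 to 15.6 CPM in bone marrow, against 5.68 to 17.5 CPM in lung, where 3 of 4 libraries were below every bone marrow library (log2 fold change 0.58 ± 0.51, edgeR adjusted p 0.721).

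FASN, the synthase that follows, had 24, 2, 36 and 44 reads in bone marrow, 187, 18, 7 and 12 in lung and 50 in the primary library. Its log2 fold change of -1.35 ± 1.26 rests on lung replicate 1 and was 1.01 without it. The chain-lengthening enzyme ELOVL6 was at 41.7 to 155 CPM in bone marrow, against 17.5 to 78.9 CPM in lung (0.85 ± 0.57). The desaturase SCD was at 91.9, 141, 211 and 252 CPM in bone marrow, against 105, 118, 210 and 121 CPM in lung (0.33 ± 0.36), and the activating enzyme ACSL3 was at 46.6 to 89.6 and 26.7 to 65.1 CPM (0.68 ± 0.37). For SCD and ACSL3, lung replicate 3 lay among the bone marrow values and above the other lung libraries.

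Other lipid genes were set beside these in lists, with the gene of smallest unadjusted edgeR p in each direction named where that p was below 0.05. In edgeR 0 members of these 6 lists passed. Other genes of sterol synthesis and SREBP processing had a median log2 fold change of 0.39 (7 of 12 higher in bone marrow), and POR, the electron donor of the pathway's oxidases, had at most 3.40 CPM in bone marrow and no reads in lung. Its bone marrow level was at least 20.02-fold higher than a floor of 3 counts over the lung group, and at least 7.09-fold higher without bone marrow replicate 1, the highest. POR had at most 3 reads in 2 of the 4 bone marrow libraries, and passed the filter on low counts only through that site. Isoprenoid branch genes had a median of 0.03 (6 of 11). Among them GGPS1, which makes geranylgeranyl diphosphate, was at 144 ± 50.3 CPM in bone marrow, against 78.8 ± 14.4 CPM in lung, without overlap (edgeR adjusted p 0.440). Genes of sterol uptake, transport and esterification had a median of 0.33 (6 of 10).

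Sterol efflux and LXR target genes had a median of -0.33 (3 of 6 tested higher in bone marrow). NR1H3, which encodes LXR alpha, was at 4.96 ± 4.32 CPM in bone marrow, against 0.371 ± 0.266 CPM in lung (edgeR adjusted p 0.331, DESeq2 adjusted p 0.00294). MYLIP, an LXR target that marks lipoprotein receptors for degradation, was at 6.93 ± 4.83 CPM in bone marrow, against 35.6 ± 20.9 CPM in lung (edgeR adjusted p 0.403, DESeq2 adjusted p 0.0217). Neither overlapped between the sites. The second LXR, NR1H2, was at 1.28 ± 1.49 CPM in bone marrow, against 2.89 ± 2.54 CPM in lung (edgeR adjusted p 0.754), and is named though its p was above 0.05.

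Other fatty acid synthesis genes had a median of 0.11 (13 of 25 tested), with TECR, a reductase of chain elongation, at 73.9 ± 26.5 CPM in bone marrow, against 32.6 ± 12.4 CPM in lung (edgeR adjusted p 0.440). Fatty acid oxidation genes had a median of 0.11 (12 of 19 tested). ACADL, an acyl-CoA dehydrogenase, was at 4.77 ± 5.06 CPM in bone marrow, against 0.0533 ± 0.0676 CPM in lung (edgeR adjusted p 0.303, DESeq2 adjusted p 0.000176). ECI1, an isomerase of oxidation, was at 7.68 ± 3.43 CPM in bone marrow, against 23.9 ± 12.4 CPM in lung (edgeR adjusted p 0.436, DESeq2 adjusted p 0.0480).

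The metastases were also set against the primary tumour. The primary tumour has 1 library, assumed to vary as the metastasis libraries do, so there is no replicate check, and the bone marrow and lung comparisons share it. In edgeR 0% of genes were called in either direction, with 0 members. On simulated counts this test called 0.5% of 2-fold and 8.5% of 4-fold changes against the primary library, so 0 calls say little. At an unadjusted edgeR p below 0.05, 299 genes were higher (1.75%) and 518 lower (3.03%) in metastases, with 0 members among them. DESeq2 called 78 genes higher (0.587%) and 19 lower (0.143%), and limma voom 48 lower (0.281%), with 0 members for either tool. By sign 20 of the 32 were higher in metastases, against 57.5% of all genes, whose median log2 fold change was itself 0.17. Fold changes exceeded their standard error in 6 of the 20, against 17.9% of all genes, and in 4 of the lower ones, against 13.0%. MVK is among the 6, with the limit given above.

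Each site's own values against the primary library are given side by side. By sign 25 of the 32 members were higher in bone marrow than in the primary library, against 58.0% of all genes, and 7 lower, against 41.4%. In lung 13 were higher, against 56.2%. Counting only log2 fold changes larger than their standard error, 8 members were higher and 1 lower in bone marrow than in the primary library, against 19.0% and 11.2% of all genes, and 6 were higher and 7 lower in lung, against 20.0% and 15.8%. Among the 18 sterol enzymes 7 were higher and 1 lower by this measure for bone marrow, and 4 higher and 3 lower for lung. MVK, which passed the filter on low counts only through bone marrow, is among the 8 and the 7, and is not support there. Over all 18 the median log2 fold change was 0.46 for bone marrow and -0.02 for lung. Both fits share the primary library, whose value enters each. The fatty acid genes had medians of 0.12 for bone marrow and -0.28 for lung. On the log2 scale the primary value was nearer to the bone marrow mean for 20 of the 32 members, against 56.7% of all genes, and nearer to the lung mean for 12.

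HMGCS1 was the only member whose primary value, 639 CPM, lay above all 8 metastasis libraries, against 10.1% of all genes. Its log2 fold change of metastases over primary was -0.86 ± 0.38 (unadjusted p 0.0510, or 0.0233 without bone marrow replicate 1). HSD17B7, at 117 to 197 CPM in the metastases and 100.0 CPM in the primary library, and SCAP, at 3.82 to 11.6 and 2.30 CPM, were the 2 members with the primary library below all 8, against 7.57% of genes. Lung against the primary library gave 3 members lower at an unadjusted edgeR p below 0.05, against 4.12% of genes, and 0 higher, against 2.33%. They were HMGCS1 (-1.29 ± 0.40, p 0.0106), ACAT2 (-0.86 ± 0.29, p 0.0151) and MSMO1 (-0.83 ± 0.33, p 0.0320), each with an edgeR adjusted p of at least 0.666. The bone marrow log2 fold changes over the same library were -0.43 ± 0.42 for HMGCS1, 0.04 ± 0.30 for ACAT2 and 0.06 ± 0.35 for MSMO1.

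Without bone marrow replicate 1, 1 member was higher in metastases at an unadjusted edgeR p below 0.05, against 2.13% of genes, and 2 were lower, against 3.64%. They were FDPS (log2 fold change 0.69, p 0.0462), and FADS1 (-0.50, p 0.0212) and HMGCS1. Bone marrow alone against the primary library had 0 members at an unadjusted p below 0.05 with all libraries, against 1.55% of genes higher and 2.26% lower, and without replicate 1 it had 3 higher (SQLE, FDPS and CYP51A1), against 2.34%, and 0 lower, against 2.82%. Of the other lists, ABCA1, the cholesterol efflux pump, was at 0.928 ± 0.701 CPM in bone marrow, 0.791 ± 0.435 CPM in lung, with 9.44 CPM in the primary library (unadjusted p 0.00273, edgeR adjusted p 0.531). LPCAT3, a phospholipid-remodelling acyltransferase, had no reads in the primary library. It passed the filter on low counts only through the metastases, so its difference from the primary library is given as values only. It averaged 13.2 ± 3.52 CPM in bone marrow, against 24.5 ± 31.8 CPM in lung, where replicate 4 had no reads either, and its metastasis level was at least 82.0-fold higher than a floor of 3 counts in the primary library, and at least 51.1-fold higher without lung replicate 3, the highest at 68.7 CPM. ELOVL1, an elongase of long chains, was at 136 ± 46.2 CPM in bone marrow, 166 ± 18.2 CPM in lung, with 52.5 CPM in the primary library (edgeR adjusted p 0.838). ETFB, an electron carrier of oxidation, was at 104 ± 26.4, 131 ± 17.5 and 46.7 CPM in the same order (edgeR adjusted p 0.881). ACADL was at 10.8 CPM in the primary library (edgeR adjusted p 0.611), nearer to bone marrow than to lung.

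**Figure D4:**
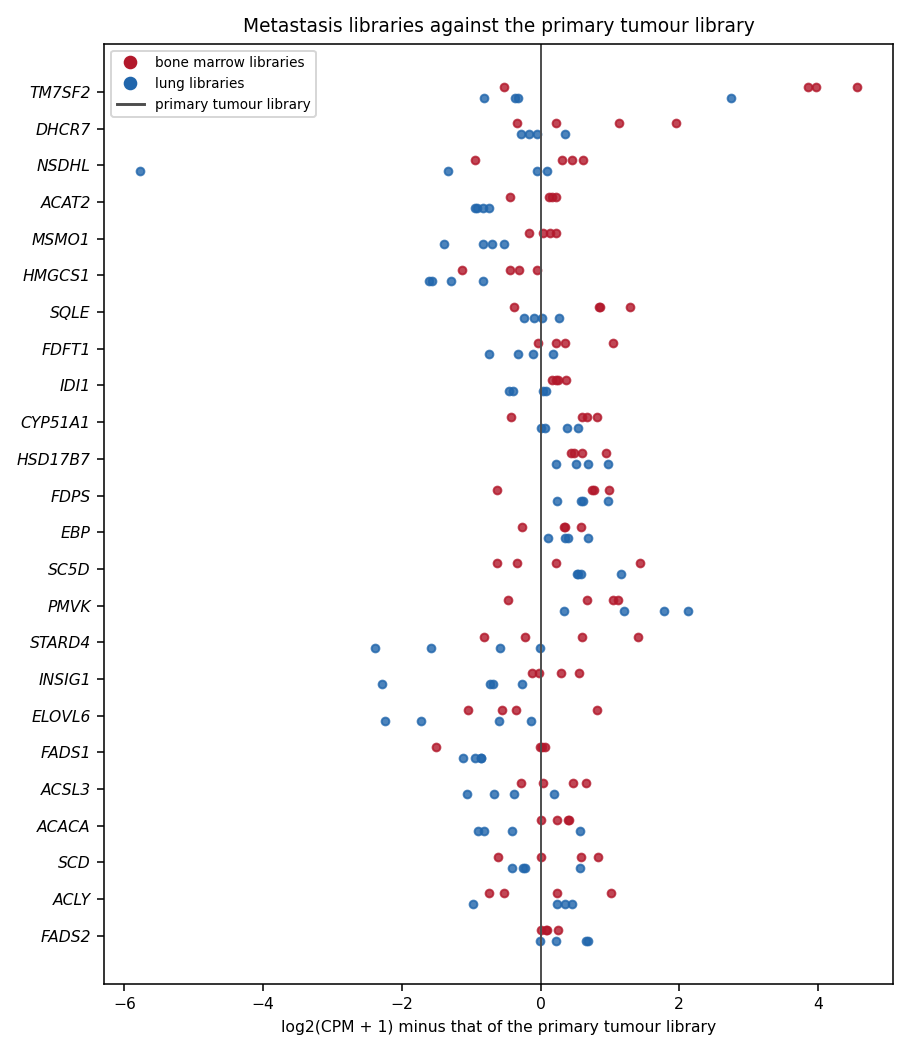
Log2(CPM + 1) of each metastasis library minus that of the primary library (x axis) for the 24 genes averaging at least 10 CPM (y axis); the line at 0 is the primary library, red points bone marrow and blue points lung. For HMGCS1 all 8 points lie left of the line and for HSD17B7 all 8 lie right of it, while for ACAT2, MSMO1 and FADS1 all lung points lie left. At or near the line lie 3 of 4 bone marrow points for ACAT2 and FADS1, and all 4 for MSMO1.

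Levels were compared between members per kilobase of the longest coding transcript. SQLE led in all 4 bone marrow libraries and in the primary library, and FDPS led in all 4 lung libraries. SQLE averaged 515 CPM per kb in bone marrow, 304 CPM per kb in lung and 303 CPM per kb in the primary library, and FDPS 404, 415 and 268 CPM per kb. At the other end were SREBF1, SREBF2, ACSS2, FASN, MVK and LSS, each below 1 CPM per kb over the 9 libraries. Members averaging under 10 CPM, 8 in number, had transcripts with a GC content of 54.6 to 65.6% and a median of 60.9%, and the other 24 had 34.2 to 62.0% and a median of 47.9%. The Spearman correlation of level per kb with GC content was -0.47 over the 32 members and -0.19 over 14505 genes with a transcript; genes share libraries, so this is a description. The low levels of the SREBP genes, FASN, MVK, MVD and LSS thus stood beside a high GC content, whose part was not tested. When the fit carried an offset for the length and GC content of transcripts, the median of the sterol enzymes between bone marrow and lung was 0.64.

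**Figure D5:**
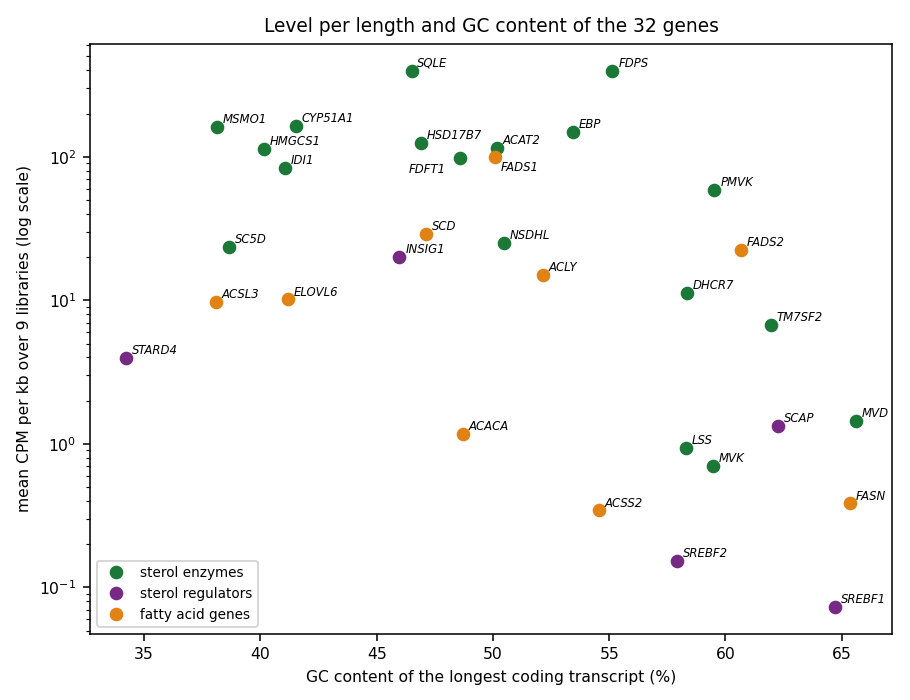
Mean CPM per kb over the 9 libraries (y axis, log scale) against the GC content of the longest coding transcript (x axis, percent) for the 32 genes, coloured by list. SQLE and FDPS are at the top, and the 8 genes under 10 CPM, SREBF1 and FASN among them, lie at a GC content of 54.6% or more.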

How the data were processed

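The 9 libraries were prepared by template switching with a kit for low RNA input, per the labels' protocols. The authors deposited estimated counts for each gene symbol, unscaled. The submitters' processing notes name Trim Galore, Salmon and hg38, and give no versions. A second deposited table gives the percent of reads per species and the fraction of reads per counting category, and how the authors made those values is not stated in the sources used here. Estimated counts were rounded. Of 34934 rows, 12 name vector genes (at most 0.0133% of a library's counts) and stayed out of library sizes and tests.

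Genes passing filterByExpr were scaled by TMM and fitted in 1 edgeR 4.0.16 quasi-likelihood model over 3 groups (R 4.3.3), with two-sided Benjamini-Hochberg adjusted p below 0.05 as threshold. Log2 fold changes are bone marrow over lung and metastases over the primary library. Standard errors are the log2 fold change over the square root of F. CPM are TMM-scaled. The model was tested on simulated counts with 200 of the better-detected genes changed. Each gene was given the spread fitted to genes of its level, so the shares do not carry over to genes with less or more spread. Between bone marrow and lung it called 0.5% of 2-fold, 35.5% of 4-fold and 75% of 8-fold changes. Against the primary library it called 0.5%, 8.5% and 40% of them. All 36 pairs of libraries differed by more than sampling noise (lowest chi-square 79.9 per degree of freedom). Gene positions, lengths and GC content are from GENCODE 29, promoters from RefSeq.

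Alternatives were DESeq2 1.42.0, limma 3.58.1 voom with quality weights, scaling by median ratios or by library size only, no filter, a minimum of 5 CPM in 4 libraries, each metastasis library left out, bone marrow replicate 1 and lung replicate 3 left out together, a replicate block, a fit to only the 8 metastasis libraries and, chosen after seeing the data, an offset for length and GC. Members and lists were chosen with earlier results of these data known. All members may be named. Of other lists, genes past the edgeR threshold were to be named and, with none past it, that of smallest unadjusted p in each direction if below 0.05. Folds whose standard error is larger carry no direction for a single gene, a choice made after the values were seen; counts by sign include them and are given with the counts that leave them out.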

Additional observations from a re-analysis of the deposited data

Results flagged for a closer look

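Within a site, 1 library lay far from the other 3, relative to the range, in 9 of 64 groups of 4 libraries examined (32 genes at 2 sites). The cutoff is set to flag about 1 in 20 groups of normally distributed values, which CPM near 0 need not be. The share flagged over all genes was not measured, so no excess among the members is claimed. FADS1 in bone marrow replicate 1 was the only low one, at 219 CPM against 623 to 656 CPM in the other 3. In lung, SCD was at 210.2 CPM in replicate 3 against 105 to 121 CPM, SC5D at 91.3 CPM in replicate 4 against 58.1 to 60.6 CPM, FASN at 15.9 CPM in replicate 1 against 0.579 to 1.27 CPM, and TM7SF2 at 10.8 CPM in replicate 2 against 0 to 0.414 CPM. The other 4 rest on few reads. ACSS2 was at 4.33 CPM in bone marrow replicate 2 against 0.391 to 0.556 CPM, and at 1.45 CPM in lung replicate 4 against 0 to 0.0828 CPM. SREBF1 was at 0.444 CPM in bone marrow replicate 1 against 0.0610 to 0.0695 CPM. SREBF2 was at 1.10 CPM in lung replicate 1 and at 0 in the other 3 lung libraries.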

How the results depend on the processing

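The number of genes called between bone marrow and lung, 1 in edgeR, was 3 with at least 5 CPM in at least 4 libraries, 468 in DESeq2 and 6 in limma voom, 0 to 0 with any 1 metastasis library left out and 0 without bone marrow replicate 1 and lung replicate 3. Members called were 3 in DESeq2 and 0 under every other alternative. Against the primary library 0 genes were called in edgeR, 97 in DESeq2 and 48 in limma voom. The cause of these differences was not tested.

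The log2 fold change of FASN between bone marrow and lung was -1.35 and ran from -1.71 to 1.01 over single libraries left out. It was 1.01 without lung replicate 1, the library that holds most of its lung reads. Between bone marrow and lung the medians ran from 0.41 to 0.88 (sterol enzymes), 0.76 to 1.35 (regulators) and 0.33 to 0.68 (fatty acid genes) over single libraries left out. Against the primary library, the median of the 5 regulators, 0.26, was -0.20 with the 5 CPM filter, -0.41 in limma voom, -0.16 without bone marrow replicate 1 and lung replicate 3, and -0.36 to 0.39 over single libraries left out, so it has no stable direction. It was -0.32 without bone marrow replicate 1 and -0.36 without lung replicate 1. That of the fatty acid genes, -0.07, also turned, to 0.01 without lung replicate 2 and 0.11 with the length and GC offset.

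Whether the replicate numbers pair the samples is not stated. Same-numbered bone marrow and lung libraries deviated from their site means with correlations of -0.004, 0.04, -0.08 and -0.02. The highest correlations with another number were 0.05, 0.02, 0.09 and 0.02, in the same order. Such values cannot show whether 2 libraries share a mouse. With the number as a replicate block, 0 genes and 0 members were called.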
